A study of Mus musculus with 2 samples.

Results

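Of the 31920 gene rows in the deposited expression table, 5 were chosen by gene symbol because they encode sodium channel subunits or pacemaker channels, and all 5 were found. Scn4a and Scn7a encode pore-forming sodium channel alpha subunits, Scn4b encodes an auxiliary beta subunit, and Hcn2 and Hcn4 encode hyperpolarization-activated channels. The 5 genes do not cover every channel of these families that a heart expresses. RNA came from the left ventricle of male 129-SvEv mice aged 10 weeks. There was 1 wildtype library and 1 library labelled Lamp2 knockout. The labels describe no treatment, driver or Cre, and do not say which part of the X-linked Lamp2 gene the knockout allele removes. Because each group is 1 library, no difference below has a replicate check, no p-value is given, and the intervals cover counting error only.

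Voltage-gated sodium channels open on depolarization and carry the inward current that starts the cardiac action potential. Their alpha subunits form the pore, and beta subunits, single-pass membrane proteins with an immunoglobulin-like domain, change gating and surface level. HCN channels open on hyperpolarization, pass sodium and potassium, and are shifted to more positive voltages by cyclic AMP (cAMP). Their current is best known from the sinoatrial node, where HCN4 is the main isoform, while HCN2 is also made by working ventricular muscle.

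Hcn2 lies on the plus strand of chromosome 10 from 79716634 to 79736108 (mm10), with 8 exons in the GENCODE M21 annotation. Hcn4 also has 8 exons and lies on the plus strand of chromosome 9 from 58823512 to 58860955. Scn4b, with 5 exons, lies on the same strand of chromosome 9 from 45139042 to 45154061. Scn4a lies on the minus strand of chromosome 11 from 106318593 to 106349390, and its longest coding transcript has 24 exons. Scn7a lies on the minus strand of chromosome 2 from 66673426 to 66784910 and has 25 exons. No gene of the annotation overlaps any of the 5, and the 1 deposited row that overlaps Hcn2 had 0 reads. The row of Polrmt, on the opposite strand, begins 17 bases past the end of Hcn2 and had 191 wildtype reads and 185 knockout-labelled reads.

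The sequences upstream of 3 of the genes are shown because Hcn2 was the gene with more reads in the knockout-labelled library, Hcn4 is its family member with fewer, and Scn4b had the lowest ratio of the 3 sodium channel genes. Each run is the 250 bases before the RefSeq transcript start (GRCm38.p6), on the gene's strand. Capitals mark the GC box GGGCGG on either strand, a sequence bound by Sp-family factors. The windows are chr10:79716384-79716633 for Hcn2, chr9:58822699-58822948 for Hcn4 and chr9:45138374-45138623 for Scn4b.
Hcn2: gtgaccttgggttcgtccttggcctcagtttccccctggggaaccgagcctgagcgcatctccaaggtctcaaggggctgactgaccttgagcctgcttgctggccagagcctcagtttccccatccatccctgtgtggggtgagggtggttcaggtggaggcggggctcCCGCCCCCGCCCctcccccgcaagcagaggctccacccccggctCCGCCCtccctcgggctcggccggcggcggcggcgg
Hcn4: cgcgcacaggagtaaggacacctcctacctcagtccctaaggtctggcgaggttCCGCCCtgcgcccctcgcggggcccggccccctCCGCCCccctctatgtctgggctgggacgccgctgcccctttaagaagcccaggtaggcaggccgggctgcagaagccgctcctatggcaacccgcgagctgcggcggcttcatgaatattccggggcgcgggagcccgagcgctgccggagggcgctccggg
Scn4b: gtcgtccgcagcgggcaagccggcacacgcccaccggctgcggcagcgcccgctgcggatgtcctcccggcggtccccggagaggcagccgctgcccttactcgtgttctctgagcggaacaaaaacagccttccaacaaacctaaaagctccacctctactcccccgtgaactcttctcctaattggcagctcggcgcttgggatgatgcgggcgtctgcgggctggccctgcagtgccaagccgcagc
The Hcn2 window held 3 GC boxes, the Hcn4 window 2 and the Scn4b window 0. A GC box was found in 32.7% of 32851 RefSeq windows of the same length. The RefSeq start of Hcn2 is also the start of its deposited row, whereas the RefSeq starts of Hcn4 and Scn4b lie 563 and 418 bases upstream of theirs.

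These 3 windows held more CpG dinucleotides for their base composition than the median window, and those of the other two genes held fewer. The ratio of observed to expected CpG was 0.859 for Scn4b, 0.792 for Hcn4 and 0.519 for Hcn2, against a median of 0.373 over all windows. It was 0.171 for Scn4a and 0.170 for Scn7a, lower than in most windows. Scn7a held 1 GC box, 1 E-box of the form CAGCTG (in 13.0% of all windows) and 1 GATA motif AGATAA (in 9.99%), and Scn4a held none of the motifs searched. No window of the 5 held the TATA box TATAAA, the E-box form CACGTG or the T-box half-site TCACACC, which were found in 12.4%, 6.02% and 3.33% of all windows. The 3 genes with more CpG included both the highest expression ratio of the 5 (Hcn2) and the lowest (Hcn4).

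Reads assigned to genes numbered 8410593 in the wildtype and 8773820 in the knockout-labelled library, and levels are given as reads per 1000000 of these (RPM). Lamp2 itself had 990 and 986 reads, which leaves the knockout label unchecked by its count, and the libraries are called by their labels throughout. Heart muscle transcripts were present in both, with a summed level of 62304 and 59958 RPM for 9 cardiomyocyte markers such as Myh6 and Myl2. For single markers the knockout-labelled level over the wildtype level ran from 0.595 for Pln to 1.42 for Ryr2. Summed levels of 6 endothelial markers were 498 and 480 RPM, and those of 5 macrophage markers 71.1 and 96.4 RPM. Mitochondrial rows took 26.5% of wildtype and 16.2% of knockout-labelled reads, which shifts the RPM of all other genes. Among 10209 genes with at least 5 RPM in the higher library, called measured here, the median log2 ratio was 0.11 with a pseudocount of 1 RPM. Dividing by the median ratio, by a trimmed mean of log ratios, or by the total without mitochondrial rows and the 10 most abundant genes lowers a log2 ratio by 0.12, 0.13 or 0.18.

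Hcn2 was more abundant in the knockout-labelled library, and Scn4a, Scn4b and Hcn4 were less abundant. Scn7a did not differ beyond counting error. Calls of higher or lower needed a log2 ratio of 1 or more in size, about 2-fold, after 1 RPM was added to both levels. Of the 4 measured members, 1 (Hcn2) was called higher, against 3.35% of all measured genes, and 1 (Scn4b) was called lower, against 2.37%. Hcn4 stayed under 5 RPM in both libraries and is not counted among these 4. The genes were chosen with earlier results of these data known, so these counts describe the 5 genes and test nothing.

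**Figure D1:**
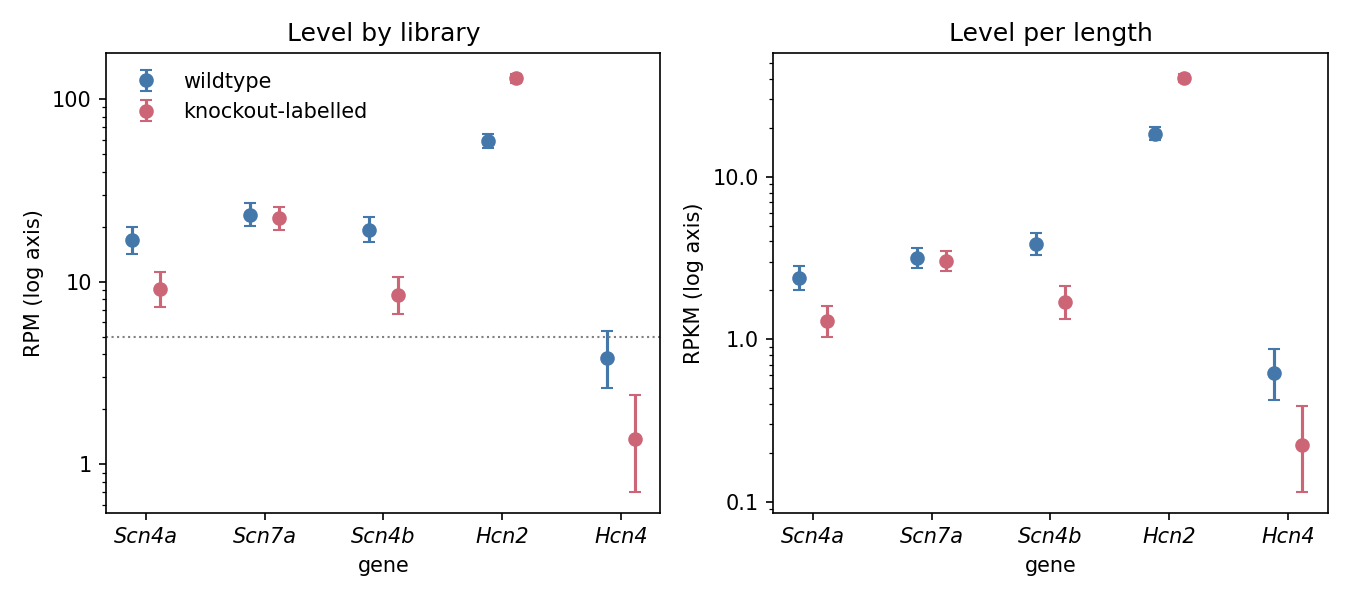
Level of each gene in the wildtype (blue) and knockout-labelled (red) library, as RPM (left) and as RPM per kilobase of exon (RPKM, right), both on log axes, with exact 95% Poisson intervals as bars and the 5 RPM minimum as a dotted line. Hcn2 was the most abundant gene in both libraries, and the intervals of the libraries overlapped for Scn7a alone.

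Scn4a, the alpha subunit best known as the main sodium channel of skeletal muscle, had 142 wildtype and 80 knockout-labelled reads. These were 16.9 RPM (95% interval 14.2 to 19.9) and 9.12 RPM (7.23 to 11.3). The knockout-labelled library was the lower one, and the intervals did not overlap. The ratio was 0.540 (0.405 to 0.715), short of 2-fold, and with the pseudocount 379 of the 10209 measured genes had a lower log2 ratio. The ratio was 0.498, 0.495 and 0.475 under the 3 rescalings, and with the pseudocount Scn4a was not called under any of them.

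Because Scn4a marks skeletal muscle, the levels of 17 skeletal muscle markers are given beside it. Their summed level was 91.3 RPM in the wildtype and 86.5 RPM in the knockout-labelled library. Below 1 RPM in both libraries were 9 of the 17, and Myog, a transcription factor of skeletal muscle, was at 0 in both. Of the 4 that were measured, 1 was called lower, against 2.37% of all measured genes. That gene, Cacna1s, encodes the calcium channel of skeletal muscle triads and had 74 and 32 reads (ratio 0.415, 0.265 to 0.636). The fast myosin gene Myh2 and the myosin-binding protein gene Mybpc2 had ratios of 0.978 and 1.08. They made up most of both summed levels, Myh2 at 23.5 and 23.0 RPM and Mybpc2 at 39.1 and 42.4 RPM. Among the markers that were not measured, the interval of the ratio lay below 1 for Myl1 (26 and 6 reads). It lay above 1 for Chrna1 (1 and 10 reads) and Mylpf (0 and 8 reads). The part of skeletal muscle RNA in the Scn4a difference was not tested. In bulk tissue, fewer cells of a type and less RNA per cell cannot be told apart.

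Scn7a encodes an atypical alpha subunit that is linked to the sensing of extracellular sodium and is also made by glia and Schwann cells. It had 196 wildtype and 195 knockout-labelled reads, or 23.3 RPM (20.2 to 26.8) and 22.2 RPM (19.2 to 25.6). The intervals overlapped almost completely. The ratio was 0.954 (0.778 to 1.17), and differences within these bounds were not detectable at this depth. Under the rescalings the ratio was 0.840 to 0.880, and each interval still held 1.

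Markers of glia and of fibroblasts are given beside Scn7a. The summed level of 17 Schwann cell and neural markers was 33.6 RPM in the wildtype and 51.4 RPM in the knockout-labelled library, and 9 of them were below 1 RPM in both. Without Cnp the sum was 19.1 and 17.4 RPM. Cnp, a myelin enzyme that other cells also make, had 122 and 298 reads. It was the 1 gene of the 2 measured that was called higher, against 3.35% of all measured genes. Fewer reads were counted in the knockout-labelled library for Erbb3, a receptor gene of Schwann cells (31 and 16, ratio 0.495, 0.253 to 0.933), and for the axonal potassium channel gene Kcna1 (21 and 6, 0.274, 0.0904 to 0.702). The Schwann cell factor gene Sox10 had 10 wildtype reads and 0 in the knockout-labelled library, where 3 reads would equal 0.342 RPM. The neuronal gene Snap25 had 0 in both. For 11 fibroblast markers the summed level was 708 and 636 RPM, or 329 and 243 RPM without the most abundant, Dcn. Of the 11, 8 had a log2 ratio below 0, none had 0 reads in both libraries, and the median log2 ratio was −0.46. Called higher were 0 and called lower were 3 (Col1a1, Col3a1 and Lum), against 3.35% and 2.37% of all measured genes. The part of these cells in the Scn7a level was not tested.

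Scn4b, the beta subunit, had 162 wildtype and 74 knockout-labelled reads. These were 19.3 RPM (16.4 to 22.5) and 8.43 RPM (6.62 to 10.6), again with the knockout-labelled library lower and no overlap of the intervals. The ratio was 0.438 (0.328 to 0.580). With the pseudocount, 168 measured genes had a lower log2 ratio. The ratio was 0.386 to 0.404 under the rescalings, and Scn4b was called lower under each of them.

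Hcn2 had 496 wildtype and 1137 knockout-labelled reads, the largest counts among the 5 genes. Its level was 59.0 RPM (53.9 to 64.4) in the wildtype and 130 RPM (122 to 137) in the knockout-labelled library, with no overlap. The ratio was 2.20 (1.98 to 2.45), and 242 measured genes had a higher log2 ratio with the pseudocount. It was 2.03 (1.82 to 2.26) after division by the median ratio, 2.02 (1.81 to 2.24) with the trimmed mean and 1.93 (1.74 to 2.15) with the reduced total. With the pseudocount Hcn2 was not called higher under the last 2 of these, although every interval lay above 1. The Hcn2 transcript has a GC content of 65.4%, higher than 99.7% of measured genes with an annotated transcript. The tenth of genes with the highest GC content had a median log2 ratio of 0.29, and Hcn2 stood at 0.85 after that median was subtracted, against 1.14 before. The share of GC content in the Hcn2 difference was not tested beyond this.

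Hcn4, the main channel of the sinoatrial node, was the gene with the fewest reads. It had 32 in the wildtype and 12 in the knockout-labelled library, or 3.80 RPM (2.60 to 5.37) and 1.37 RPM (0.707 to 2.39). The knockout-labelled value was the lower one and the intervals did not overlap, but both levels were below the 5 RPM minimum. The ratio was 0.359 with a wide interval of 0.169 to 0.717. With a minimum of 1 RPM in place of 5, Hcn4 was called lower (log2 ratio −1.02 with the pseudocount) together with Scn4b, and 2.95% of all genes above that minimum were called lower.

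**Figure D2:**
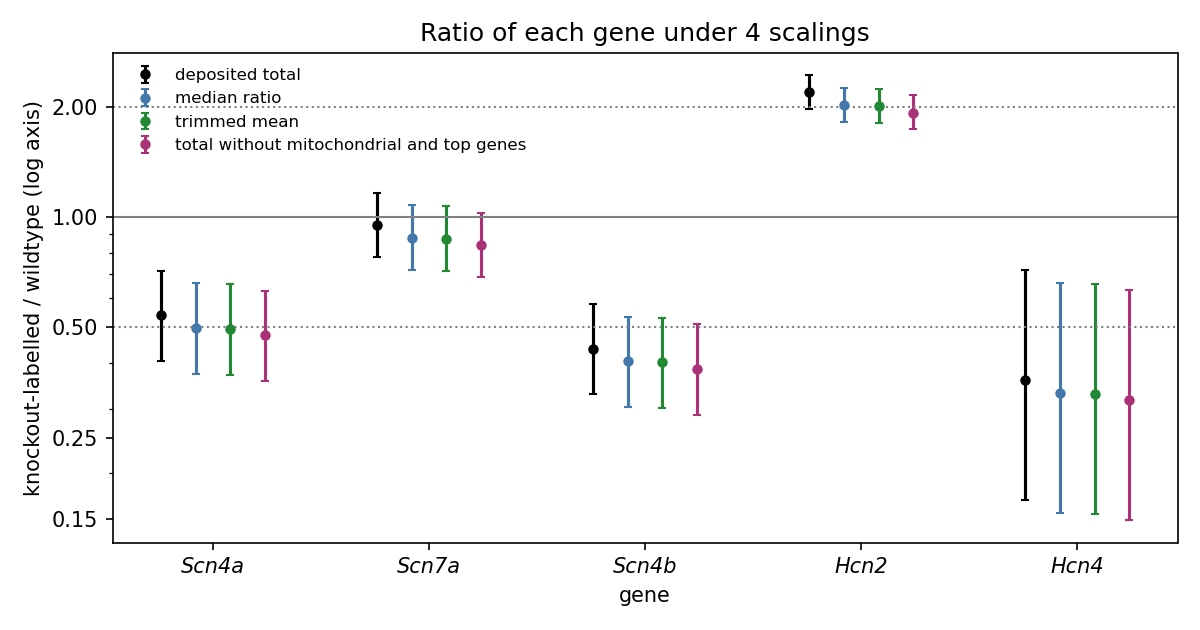
Ratio of the knockout-labelled to the wildtype level of each gene on a log axis, with exact conditional binomial 95% intervals as bars, on the deposited scale (black) and under 3 rescalings (colours). The solid line is a ratio of 1 and the dotted lines are 0.5 and 2; Hcn2 lay above 1 and Scn4a, Scn4b and Hcn4 lay below 1 under all 4 scalings, while the bars of Scn7a crossed 1.

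**Figure D3:**
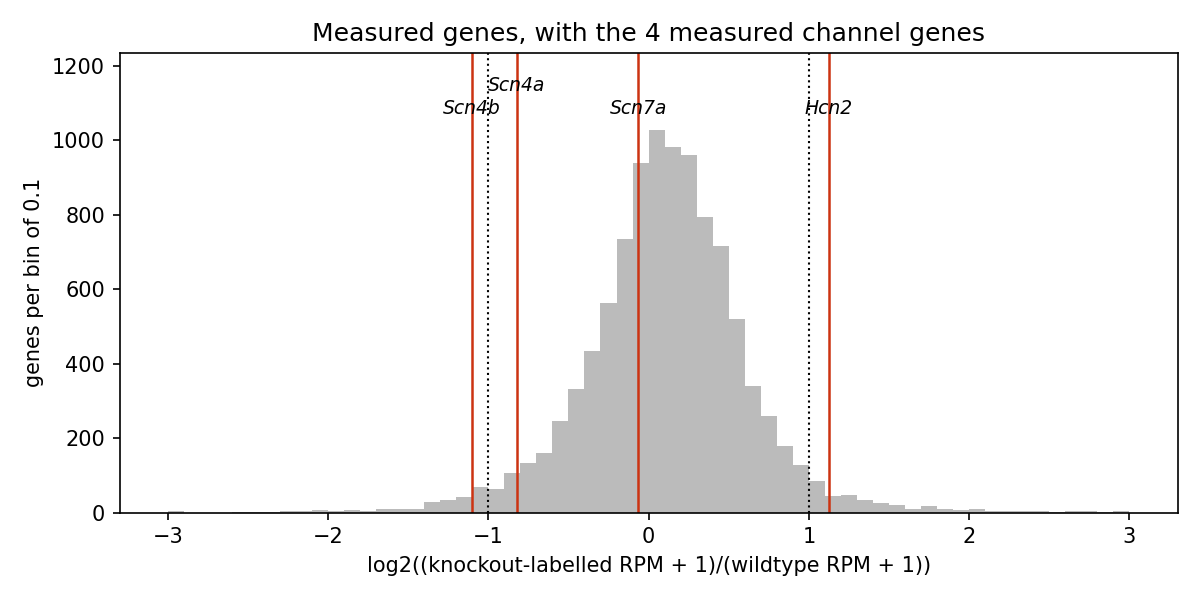
Number of measured genes in bins of 0.1 of the log2 ratio with a pseudocount of 1 RPM, with the 4 measured channel genes as red lines and the 2-fold limits as dotted lines; the outermost bins also hold values beyond 3 in size. Scn4b and Hcn2 lay just outside the limits on opposite sides, Scn4a inside the lower limit and Scn7a near the centre.

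Proportions between genes of the same library do not depend on how a library is scaled. Of all reads of the 5 genes, Hcn2 took 48.2% (exact 95% interval 45.2 to 51.4) in the wildtype and 75.9% (73.7 to 78.0) in the knockout-labelled library. The share of Scn4b was 15.8% (13.6 to 18.1) and 4.94% (3.90 to 6.16), and that of Scn4a was 13.8% (11.8 to 16.1) and 5.34% (4.26 to 6.60). Scn7a took 19.1% (16.7 to 21.6) and 13.0% (11.4 to 14.8). The Hcn4 share was 3.11% and 0.801%. Among the reads of the 4 genes other than Hcn2, Scn7a took 36.8% (32.7 to 41.1) in the wildtype and 54.0% (48.7 to 59.2) in the knockout-labelled library.

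The proportion of Hcn2 to Hcn4 had the largest point estimate of difference, with an interval that overlaps those of Hcn2 with Scn4b and with Scn4a. There were 15.5 Hcn2 reads per Hcn4 read in the wildtype and 94.8 in the knockout-labelled library, a 6.11-fold difference in proportion (exact conditional 95% interval 3.03 to 13.1). The Scn4b to Hcn2 proportion in the knockout-labelled library was 0.199 (0.146 to 0.270) of that in the wildtype, and the Scn4a to Hcn2 proportion was 0.246 (0.181 to 0.333) of it. The 2 alpha subunits also separated, since the Scn4a to Scn7a proportion was 0.567 (0.398 to 0.805) of the wildtype one. The Scn7a to Scn4b proportion was 2.18 (1.53 to 3.11) times that in the wildtype. The pairs share genes and are not independent, and the share of other gene pairs with an interval that excludes 1 was not computed. Of the 10 pairs, 7 had an interval that excluded 1, a count that restates the ratios of the single genes. The other 3 were the pairs among Scn4a, Scn4b and Hcn4: Scn4a to Scn4b at 1.23 (0.821 to 1.85), Scn4a to Hcn4 at 1.5 (0.704 to 3.39) and Scn4b to Hcn4 at 1.22 (0.571 to 2.75). The reads therefore did not separate the 3 lower genes from each other, though the intervals with Hcn4 are wide.

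**Figure D4:**
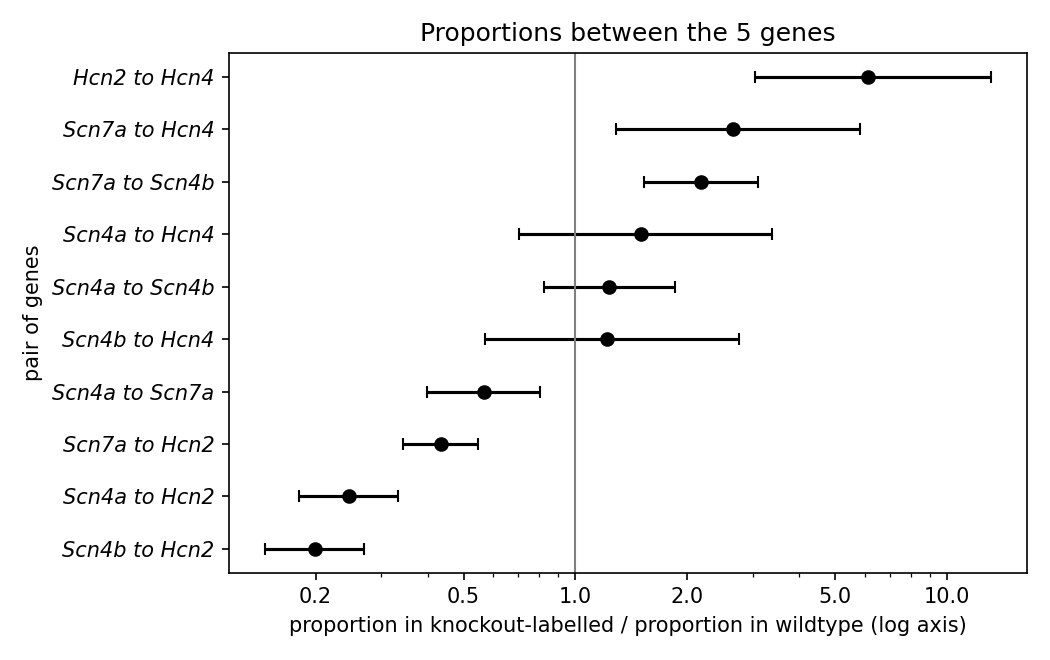
For each of the 10 pairs, the proportion of the first gene to the second in the knockout-labelled library divided by that in the wildtype, on a log axis, with exact conditional 95% intervals as bars. Hcn2 to Hcn4 stood highest at 6.11 and Scn4b to Hcn2 lowest at 0.199, and 3 bars crossed 1.

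Per length of exon, Hcn2 was the most abundant of the 5 in both libraries. Its level was 18.5 RPKM (16.9 to 20.2) in the wildtype and 40.6 RPKM (38.2 to 43.0) in the knockout-labelled library. In the wildtype Scn4b followed at 3.87 RPKM (3.29 to 4.51), Scn7a at 3.18 RPKM (2.75 to 3.65), Scn4a at 2.40 RPKM (2.02 to 2.83) and Hcn4 at 0.622 RPKM (0.425 to 0.878). Scn7a was not separated from Scn4b by its reads (proportion 0.821, 0.664 to 1.02), whereas Scn4a was below Scn7a (0.755, 0.604 to 0.942).

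The order was different in the knockout-labelled library. There Scn7a came after Hcn2 at 3.03 RPKM (2.62 to 3.49), followed by Scn4b at 1.69 RPKM (1.33 to 2.13), Scn4a at 1.29 RPKM (1.03 to 1.61) and Hcn4 at 0.224 RPKM (0.116 to 0.391). Scn7a stood above Scn4b (proportion 1.79, 1.36 to 2.37), while Scn4a and Scn4b were not separated (0.765, 0.551 to 1.06). Hcn2 exceeded Hcn4 per length by 29.7-fold (20.8 to 43.9) in the wildtype and by 181-fold (103 to 352) in the knockout-labelled library.

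Proteins that bind or place sodium channels showed few large differences. Of 16 genes listed, 11 were measured, with a median log2 ratio of −0.05 against 0.11 over all measured genes. Of the 11, 0 were called higher and 1 was called lower, against 3.35% and 2.37% of all measured genes. The gene called lower was Ptpn3, a tyrosine phosphatase that binds the channel, with 263 and 116 reads (ratio 0.423, 0.337 to 0.528). Ank2, an ankyrin that anchors ion transporters, had 121 and 84.0 RPM (ratio 0.692, 0.629 to 0.761), and Ank3, the ankyrin that anchors sodium channels at the intercalated disc, had 78.0 and 97.2 RPM (1.25, 1.12 to 1.38). Pkp2, a desmosome protein, had the most reads of the list and a ratio of 0.968 (0.918 to 1.02). Cav3, the muscle caveolin, had a ratio of 1.41 (1.25 to 1.60).

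Of 7 genes whose products join or regulate HCN channels, 4 were measured, none was called, and their median log2 ratio was −0.19. Over all measured genes, 3.35% were called higher and 2.37% lower. Kcne2, a small subunit that can join HCN channels, had 0 reads in both libraries. Pex5l, which encodes the HCN trafficking protein TRIP8b, had 3 and 6 reads. The filamin gene Flna had a ratio of 0.805 (0.701 to 0.924) and the phosphoprotein gene Mrvi1 one of 0.772 (0.549 to 1.08). Cav3, which is also on this list, had the higher ratio of 1.41 (1.25 to 1.60), and Nedd4l had 0.945 (0.780 to 1.15).

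Of 17 listed genes that set the supply of cAMP, the ligand of HCN channels, 12 were measured, 6 with a log2 ratio above 0 and 6 below, with a median of −0.06 on the deposited scale. Under each of the 3 rescalings 2 were above 0 and 10 below, with medians of −0.17 to −0.24. The 1 gene called was Adrb1, called lower, against 2.37% of all measured genes. Adrb1 encodes the beta-adrenergic receptor that drives cAMP synthesis in heart muscle, and was at 14.9 and 6.15 RPM (ratio 0.414, 0.295 to 0.574). Pde4a, which degrades cAMP, had 58.7 and 30.9 RPM (ratio 0.526, 0.452 to 0.611), and Pde4d had a ratio of 0.727 (0.611 to 0.864). The adenylyl cyclase genes Adcy5 and Adcy6, which make cAMP in cardiomyocytes, had ratios of 1.06 (0.956 to 1.17) and 0.892 (0.827 to 0.963). The muscarinic receptor gene Chrm2, which lowers cAMP on vagal input, had a ratio of 1.033 (0.907 to 1.18), and the stimulatory G protein gene Gnas one of 1.06 (1.02 to 1.09).

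Sodium that enters through these channels is removed by the sodium pump, and genes of sodium transport differed in both directions by less than 2-fold on the scale used for calls. The pump subunit gene Atp1b1 had a ratio of 0.95 (0.888 to 1.02). Fxyd1, which encodes the pump regulator phospholemman, was higher at 803 and 1060 RPM (1.32, 1.28 to 1.36), as was Fxyd5 at 13.0 and 26.2 RPM (2.02, 1.60 to 2.56). The bicarbonate cotransporter gene Slc4a7 had a ratio of 0.547 (0.414 to 0.719), and the sodium-calcium exchanger gene Slc8a1 one of 0.791 (0.744 to 0.841). None of the 13 measured genes was called 2-fold apart, against 3.35% called higher and 2.37% called lower of all measured genes. Of the 13, 8 had a log2 ratio below 0, and the median was −0.07.

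Other genes of the conduction system and sinoatrial node were set beside Hcn4. Of 23 genes, 14 were measured, with a median log2 ratio of −0.20. Of the 14, 1 was called higher and 2 lower, against 3.35% and 2.37% of all measured genes. Called lower were Gja5, the connexin of fast-conducting fibres, atria and arterial endothelium, with 60 and 13 reads (ratio 0.208, 0.105 to 0.383), and Rgs6, a regulator of muscarinic signalling, with 62 and 25 reads (0.387, 0.233 to 0.624). Cacna1g, a T-type calcium channel gene, had 70 and 34 reads (0.466, 0.30 to 0.711). Bmp4, a growth factor gene that many cell types express, was called higher at 109 and 327 reads (2.88, 2.31 to 3.61). The node factor gene Isl1 had 0 reads in both libraries and Shox2 had 9 and 14. Tbx3, another factor of the conduction system, had 411 and 355 reads (0.828, 0.716 to 0.957), and the more broadly expressed Nkx2-5 had 1241 and 2023 (1.56, 1.46 to 1.68). Hopx, also broadly expressed, had the most reads of the list, at 342 and 306 RPM.

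Atrial tissue is a second source of Hcn4. Of 12 atrial markers, Bmp10 was at 0 in both libraries, Sln had 5 and 1 reads, and the atrial myosin light chain genes Myl7 and Myl4 had 19 and 4 and 18 and 12. The interval of the ratio lay below 1 for Myl7 (0.202, 0.0499 to 0.607) and held 1 for Myl4 (0.639, 0.281 to 1.40) and Sln (0.192, 0.00405 to 1.71). The summed level of the 12 markers was 95.8 RPM in the wildtype and 105 RPM in the knockout-labelled library. Most of both sums came from Nr2f2 (34.0 and 33.5 RPM), Kcna5 (17.7 and 17.0 RPM) and Stard10 (15.1 and 24.5 RPM). Myl7 (2.26 and 0.456 RPM), Myl4 (2.14 and 1.37 RPM) and Sln (0.594 and 0.114 RPM) added little to them. Of 7 measured genes 2 were called higher (Adm and Dkk3) and 2 lower (Gja5 and Upk3b), against 3.35% and 2.37% of all measured genes. The part of conduction or atrial RNA in the Hcn4 difference was not tested.

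**Figure D5:**
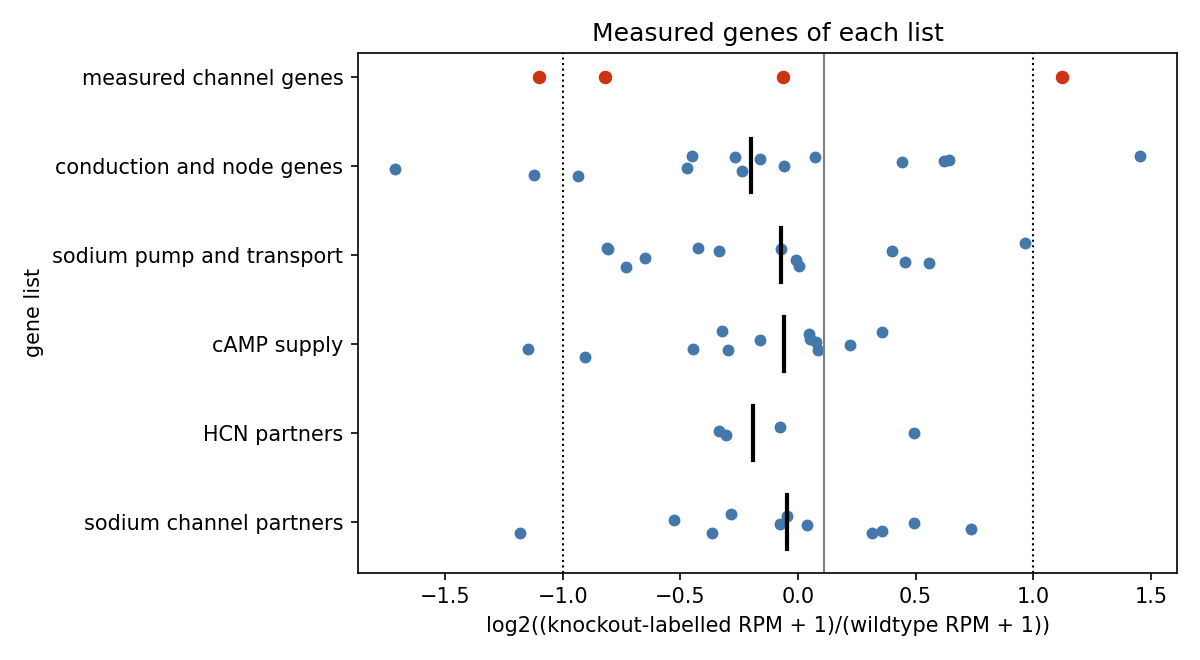
Log2 ratio with a pseudocount of 1 RPM of each measured gene in 5 lists (blue points, spread vertically for legibility; black bar, list median) and of the 4 measured channel genes (red), with the median of all measured genes as a grey line and the 2-fold limits as dotted lines. The list medians lay between −0.20 and −0.05, all left of the grey line at 0.11.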

How the data were processed

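The data are RNA sequencing reads of polyadenylated left ventricle RNA from 1 wildtype and 1 Lamp2 knockout library, grouped by the genotype labels. The submitters' processing notes name STAR, mm10 and GRCm38; the tool that counted reads, its annotation, its use of strand and its handling of multiple matches are not given there. Reads matching closely related channel genes may therefore be split or lost. Per the file headers, the authors deposited read counts per gene, not normalized. The deposited RPM values were made by the authors from these, and equal count over library total times 1000000 within 5e-05. The authors' deposited fold (a ratio) and p-value, whose method is not stated, were not used. Deposited starts count from 0 and are printed plus 1.

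The 5 members and all lists were chosen with earlier results of these data known. Ratios of RPM carry exact conditional binomial (Clopper-Pearson) 95% intervals, levels exact Poisson intervals, and shares exact binomial intervals; reads carry no molecular identifiers. RPKM used the union of GENCODE M21 exons. Lists are described by counts and medians without a test. From each list up to 4 members with the largest log2 ratio and up to 3 abundant ones could be named, and other genes that are named are low or defining members of a list; other genes of both channel families, and some genes the rule covers, are not reported here. Alternatives tried were 0.1 or 5 RPM as pseudocount, 1 or 20 RPM or none as minimum, ratios of 1.5 and 3, the 3 rescalings (the trimmed mean leaves out 30% of ratios and 5% of levels at each end) and 2 other transcript lengths. Subtraction of the median of genes of like transcript GC content or length was added after the data were seen; 87.9% of measured genes had these values. All 5 members matched RefSeq windows. Calls and intervals were tested on simulated Poisson counts with known ratios and no variation between animals, which checks counting error only. Python 3.11.15, numpy 2.4.6, pandas 2.3.3, scipy 1.17.1 and matplotlib 3.10.9 were used.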

Additional observations from a re-analysis of the deposited data

How the results depend on the processing

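Each of the 5 genes kept the sign of its log2 ratio under the 3 rescalings, the pseudocount of 1 RPM and the subtraction of GC or length medians. Outside its counting interval lay Hcn2 alone, at a log2 ratio of 0.95 with the reduced total and 0.85 after the GC median was subtracted. The number called higher was 0 in place of 1 with the trimmed mean, with the reduced total and at a ratio of 3. The number called lower was 0 with a pseudocount of 5 RPM, a minimum of 20 RPM or a ratio of 3, and it was 2 with no minimum or a minimum of 1 RPM (Hcn4 added) and at a ratio of 1.5 (Scn4a added). With the longest transcript or longest coding transcript, the Scn4a length was 6598 in place of 7041 bases, and its levels moved by less than their intervals. For Scn7a, Scn4b, Hcn2 and Hcn4 these lengths equal the union of exons, so their levels could not move. In all, 59 of the 70 alternative values counted as unchanged. A ratio or level counted so inside its counting interval, and a number called if within a factor of 1.5 of its main value. The 59 include the levels per length that could not move. No paired analysis was possible because each group holds 1 library. The ratio of Hcn4 rests on 32 and 12 reads.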
